A study of Mus musculus with 6 samples.

Results

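Senescent cells leave the cell cycle for good, and the genes by which that arrest is usually read are those of the cyclin-dependent kinase (CDK) inhibitors and of lamin B1. The 8 genes described here are Cdkn2a, Cdkn2b, Cdkn2c, Cdkn2d, Cdkn1a, Cdkn1b, Cdkn1c and Lmnb1. They were taken by gene symbol from a table of 24062 symbols measured by RNA sequencing in plaque of the aortic arch. All 8 had a row, and all 8 were among the 15222 genes left after a filter on low counts. In all 6 samples the plaque came from C57BL/6 mice that lack the low-density lipoprotein receptor, a lesion that raises blood cholesterol and makes mice prone to atherosclerosis. Every mouse was fed the high-fat diet TD88137 over 12 weeks, followed by 3 weeks of low-fat food. The 3 vehicle samples are the controls, and the 3 treated samples came from mice given daily intraperitoneal ABT263 at 100 mg/kg, dated by the labels to week 1 on low-fat food. Neither the length of dosing, nor the age of the mice, nor whether a sample is 1 animal is given in the sources used here. The p-values therefore measure only how far these samples spread, which may be technical. ABT263, also named navitoclax, inhibits antiapoptotic proteins of the BCL-2 family and is used as a senolytic, a drug that kills senescent cells. The comparison therefore asks whether the arrest genes stood at another level in plaque after the drug.

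Both families of CDK inhibitor hold cells before DNA synthesis. The INK4 proteins (encoded by Cdkn2a, Cdkn2b, Cdkn2c and Cdkn2d) bind CDK4 and CDK6 and keep D-type cyclins from activating them. The Cip/Kip proteins (encoded by Cdkn1a, Cdkn1b and Cdkn1c) bind whole cyclin-CDK complexes, above all those of CDK2. In either case the retinoblastoma protein stays active and represses the genes that E2F factors drive. Lamin B1 is a filament protein of the nuclear lamina whose loss is a widely used mark of senescent cells. In plaque, smooth muscle cells, endothelium and macrophages have all been described to carry senescence marks.

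The Cdkn2a row cannot be read as a level of the INK4 protein alone. The gene lies on chromosome 4 from 89274471 to 89294653 (mm10, minus strand) and has 2 coding transcripts with separate first exons. The downstream first exon (89281986 to 89282192, 207 bases) begins the INK4 transcript, whose protein is p16Ink4a. The upstream one (89294334 to 89294653, 320 bases) begins the transcript of p19Arf, which acts on MDM2 and so on p53. The starts lie 12461 bases apart, and the transcripts share 575 of the 1172 exon bases, or 49.1%. Counts per gene symbol pool them. Cdkn1a, on chromosome 17 from 29090976 to 29100727 (plus strand), likewise has an upstream start at 29090979 beside its main start at 29093769. The bases before these 4 starts are shown to make the pooled transcripts visible. They are from RefSeq's table for GRCm38.p6, the assembly that mm10 denotes, and run 5′ to 3′ on the gene's strand from 250 to 35 bases before the RefSeq start, which leaves out every annotated exon of the gene. Capitals mark the core spacing of a p53 response element (CATG, any 6 bases, CATG) and the GC box (GGGCGG), both searched on both strands.
Cdkn2a before the p19Arf start, chr4:89294654-89294869, minus strand: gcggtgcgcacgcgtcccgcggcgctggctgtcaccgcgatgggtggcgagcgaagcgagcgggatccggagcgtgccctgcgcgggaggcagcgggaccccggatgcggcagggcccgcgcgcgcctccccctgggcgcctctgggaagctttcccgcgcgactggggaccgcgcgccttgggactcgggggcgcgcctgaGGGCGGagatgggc
Cdkn2a before the p16Ink4a start, chr4:89282227-89282442, minus strand: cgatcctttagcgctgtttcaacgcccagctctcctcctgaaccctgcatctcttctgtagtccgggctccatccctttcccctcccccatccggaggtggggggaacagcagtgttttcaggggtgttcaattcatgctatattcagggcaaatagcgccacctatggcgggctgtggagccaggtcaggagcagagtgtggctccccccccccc
Cdkn1a before the upstream start, chr17:29090729-29090944, plus strand: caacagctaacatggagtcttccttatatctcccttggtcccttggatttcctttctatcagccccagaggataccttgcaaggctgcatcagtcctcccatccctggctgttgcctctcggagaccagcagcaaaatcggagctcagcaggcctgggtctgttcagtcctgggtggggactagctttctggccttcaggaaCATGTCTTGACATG
Cdkn1a before the main start, chr17:29093519-29093734, plus strand: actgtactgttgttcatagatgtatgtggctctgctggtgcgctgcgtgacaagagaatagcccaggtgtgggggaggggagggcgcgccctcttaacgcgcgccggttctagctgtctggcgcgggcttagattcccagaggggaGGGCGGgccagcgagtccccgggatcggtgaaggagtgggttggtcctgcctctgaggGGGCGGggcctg

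Base composition differed among these windows. G and C made up 78.7% of the bases before the p19Arf start and 59.7% before the p16Ink4a start. The p53 spacing matched 1 time, 48 bases before the upstream Cdkn1a start, and 0.447% of 32851 RefSeq windows of the same 216 bases held it. The GC box matched 2 times before the main Cdkn1a start, 1 time before the p19Arf start and 0 times in the other windows shown. Of all windows, 27.9% held it. These matches describe the letters and say nothing of binding. RefSeq windows were matched for 6 of the 8 genes. Cdkn1c and Lmnb1 are named without one.

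Library totals ran from 62930547 to 110452098 counts and did not separate the groups (exact permutation p = 0.8, two-sided). Levels are normalised read counts (CPM, counts scaled to TMM-adjusted library size). A count of 3, up to which a count of 0 is uncertain, was worth at most 0.0477 CPM on library totals without TMM adjustment, counting error only. All 8 genes were far above this floor in every library, the lowest being Cdkn2a at 2.19 CPM. Macrophage and contractile smooth muscle markers were present in every library, at summed levels of 3452 to 14701 and 2407 to 15763 CPM. The contractile sum was 2608 to 3593 CPM with vehicle and 2407, 15763 and 9743 CPM in ABT263 replicates 1 to 3, with positive fold changes for 8 of 8 genes. Summed macrophage levels (10 of 11 listed genes in the table, all 10 with a negative fold change) were 7265 to 14701 CPM with vehicle and 3452 to 7074 with ABT263, without overlap. Taken singly, 6 of the 10 genes separated the groups, while Cd68, Cd14, Mrc1 and Lgals3 overlapped. T cell (95.5 to 142 against 30.2 to 81.1 CPM) and B cell sums (20.8 to 77.2 against 4.57 to 13.6) were lower with ABT263. So were cartilage sums (1440 to 2583 against 680 to 1205), and these ranges did not overlap between groups. Adventitial fibroblast sums were higher (770 to 970 against 1097 to 5381). In that list 1 of 6 genes, Gsn, separated the groups (605 to 769 against 856 to 3915 CPM). Gsn made up most of the sum. Neutrophil sums overlapped narrowly (121.2 to 276 against 46.7 to 121.3 CPM). Endothelial (355 to 4384 against 1600 to 4412) and skeletal muscle sums (4.70 to 5.28 against 4.11 to 39.4) overlapped as well. ABT263 replicate 2 stood apart in adipocyte genes, Adipoq being at 356 CPM there and at 0.0960 to 0.510 in the other libraries. The ribosomal RNA precursor Rn45s took 0.54% to 1.74% of vehicle counts and 0.30% to 0.33% of ABT263 counts (exact permutation p = 0.1, the smallest that 3 against 3 allows). In bulk RNA, fewer cells of a type and less RNA per cell cannot be told apart, and this holds for every value below. The part of these marker shifts in the results below was not tested.

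None of the 8 genes passed the test. In edgeR's quasi-likelihood fit over all genes, with Benjamini-Hochberg adjustment, their adjusted p ran from 0.601 (Lmnb1) to 0.988 (Cdkn2d), and 0 of the 15222 genes were called (0%). None of the 8 reached an unadjusted p of 0.05, which 8.38% of all genes did (3.68% lower and 4.70% higher with ABT263). DESeq2 called 153 genes (1.01%) and limma-voom 0 (0%), while an unadjusted p of 0.05 was reached by 1718 (11.3%) in DESeq2 and 855 (5.62%) in limma-voom. Neither tool called any of the 8. Fold changes were positive for 4 and negative for 4, with a median log2 fold change (ABT263 over vehicle) of -0.072, beside 0.00080 over all genes tested. TMM-scaled CPM of the groups did not overlap for 2 of the 8, Lmnb1 on the lower side and Cdkn2b on the higher side. Over all genes this held for 12.0%, 6.31% lower and 5.68% higher with ABT263.

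**Figure D1:**
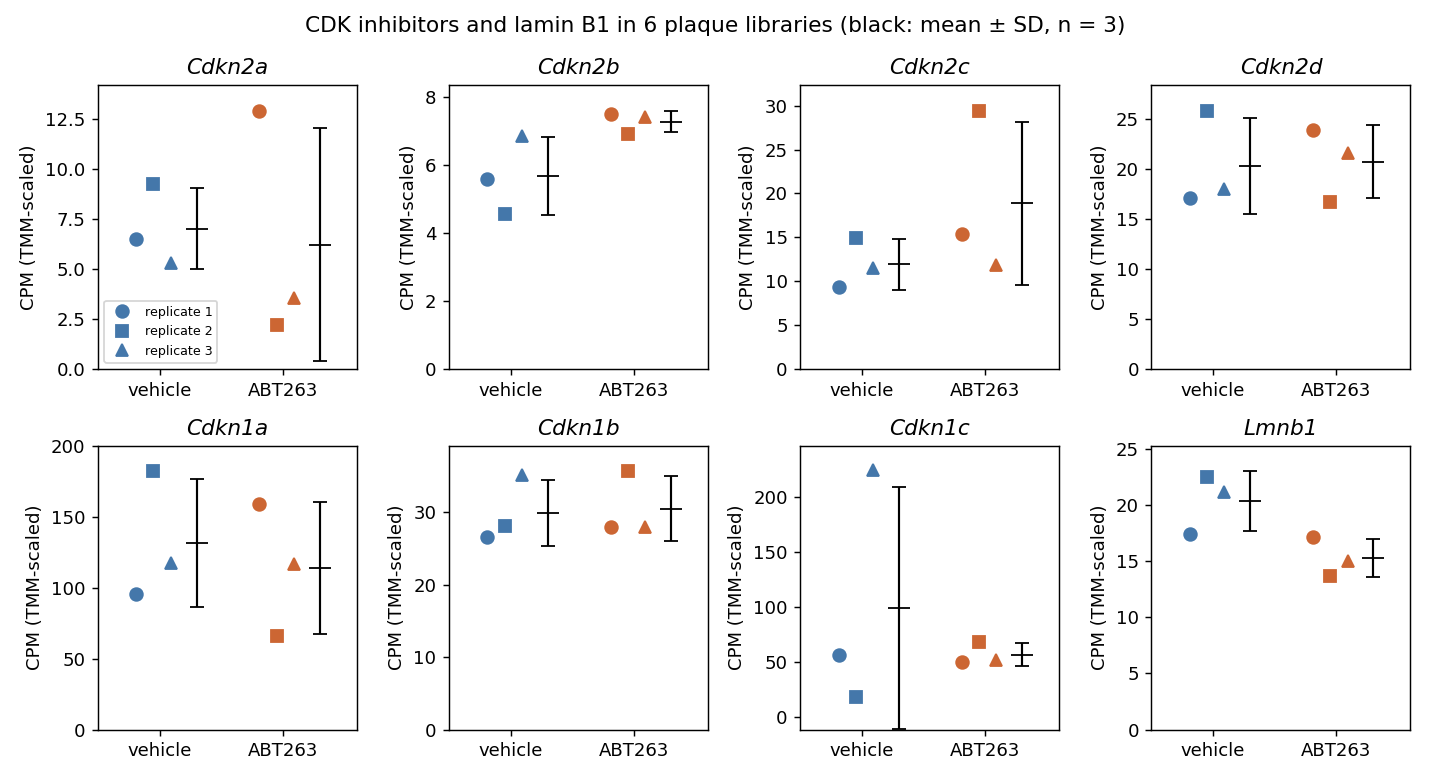
TMM-scaled CPM (linear axis) of each gene in the 3 vehicle (blue) and 3 ABT263 (orange) libraries; the symbol gives the replicate, and black marks give the mean and SD (n = 3). Lmnb1 and Cdkn2b separate by group with narrow gaps, while Cdkn2a spans 2.19 to 12.9 CPM within the ABT263 group and Cdkn1c 18.1 to 225 CPM within the vehicle group.

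Cdkn2a, the INK4 gene most often used to detect senescent cells, was both highest and lowest in ABT263 libraries. Its levels were 6.51, 9.25 and 5.28 CPM in vehicle replicates 1 to 3 and 12.9, 2.19 and 3.55 CPM in ABT263 replicates 1 to 3. ABT263 replicates 2 and 3 lay below every vehicle library and ABT263 replicate 1 above every one, so the groups overlapped. The means were 7.01 ± 2.03 and 6.22 ± 5.84 CPM (SD, n = 3), and the log2 fold change was -0.17 (SE 0.67, 95% interval -1.77 to 1.42, edgeR adjusted p = 0.970). ABT263 replicate 1 decided the value. Without it the log2 fold change was -1.29 (adjusted p = 0.322 by edgeR). Cdkn2a reached an unadjusted p of 0.05 in that fit, as did 12.0% of its 15556 genes, and 0 genes were called. The adjusted p over the alternatives ran from 0.322 to 1.000. With vehicle replicate 2, ABT263 replicate 2 or ABT263 replicate 3 left out instead, the log2 fold change was 0.078, 0.23 and 0.11. The summed macrophage level of ABT263 replicate 1 was 7074 CPM, beside 3452 and 6559 CPM in ABT263 replicates 2 and 3. In the vehicle libraries that sum was 7265 to 14701 CPM, with Cdkn2a at 5.28 to 9.25 CPM. The part of macrophage content in the Cdkn2a value was not tested.

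The genes whose profile over the 6 libraries came nearest to that of Cdkn2a were Serpina3i (a serine protease inhibitor with close paralogs, so its counts are uncertain), Pilra (an inhibitory receptor of myeloid cells) and Trem1 (an activating receptor of myeloid cells). Nearness was the root mean square difference between log2 CPM centred on each gene's mean, which was 0.21, 0.22 and 0.25, beside an SD of 0.92 for Cdkn2a itself. Pilra stood at 34.4, 53.2 and 22.3 CPM in the vehicle libraries, against 45.95, 10.7 and 17.0 CPM in those of ABT263. As for Cdkn2a, vehicle replicate 2 and ABT263 replicate 1 held the highest levels of Pilra and ABT263 replicates 2 and 3 the lowest. The 6 libraries are shared by all these profiles, and the ranking is a description.

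Cdkn2b, which encodes the TGF-beta-inducible inhibitor p15Ink4b and lies next to Cdkn2a (chromosome 4, 89306299 to 89311039), did not follow its neighbour in every library. It stood at 5.60, 4.56 and 6.87 CPM in the vehicle libraries, against 7.51, 6.92 and 7.43 CPM in those of ABT263. Every ABT263 library was above every vehicle library, by 6.92 against 6.87 CPM at the closest pair. The means were 5.68 ± 1.16 and 7.29 ± 0.32 CPM (SD, n = 3), with a log2 fold change of 0.36 (SE 0.25, 95% interval -0.25 to 0.97, adjusted p = 0.747 by edgeR), or 0.22 without vehicle replicate 2. Both Cdkn2a and Cdkn2b were highest in ABT263 replicate 1. In ABT263 replicate 2, the library with the least Cdkn2a, Cdkn2b stood above all vehicle libraries. Over vehicle replicate 3 the margin was small, with 467 against 470 raw counts before scaling. A gap of 11646 bases separates the annotated genes.

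Cdkn2c encodes p18Ink4c (chromosome 4, 109660876 to 109667189), an INK4 protein that acts during differentiation as well as arrest. Its levels were 9.28, 15.0 and 11.5 CPM in the vehicle libraries, against 15.4, 29.4 and 11.8 CPM in those of ABT263. The groups overlapped, and ABT263 replicate 2 held the highest level. The log2 fold change of 0.67 (SE 0.38, 95% interval -0.25 to 1.58, adjusted p = 0.683 by edgeR) was 0.20 without that library. Summed white adipocyte markers (6 of 6 in the table, 5 tested, all 5 positive) were 3924 CPM in ABT263 replicate 2 and 63.4 to 286 CPM in the other 5 libraries. Contractile smooth muscle (15763 against 2407 to 9743 CPM) and adventitial fibroblast sums (5381 against 770 to 1306 CPM) peaked in the same library. The part of these in the Cdkn2c value was not tested.

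Cdkn2d, which encodes p19Ink4d (chromosome 9, 21288410 to 21291407), was the INK4 gene of smallest difference. It stood at 17.1, 25.8 and 18.0 CPM in the vehicle libraries, against 23.9, 16.7 and 21.6 CPM in those of ABT263, with overlap. The log2 fold change was 0.031 (SE 0.24), with a 95% interval of -0.54 to 0.60.

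Among the Cip/Kip genes, Cdkn1a (p21, the inhibitor that p53 induces) varied 2.77-fold over the libraries without separating the groups. It stood at 95.7, 182 and 117 CPM in the vehicle libraries, against 159, 65.9 and 117 CPM in those of ABT263. Cdkn1a was highest in vehicle replicate 2 and lowest in ABT263 replicate 2, as were Cdkn2d, Lmnb1 and the summed macrophage markers. The log2 fold change was -0.21 (SE 0.38, 95% interval -1.13 to 0.71, adjusted p = 0.933 by edgeR), and it was 0.37 without these 2 libraries. Leaving out the highest vehicle and the lowest ABT263 library pushes the value upward by construction. An antisense gene overlaps 7.68% of the Cdkn1a exon bases, and the kit does not mark the strand, so a share of the counts is uncertain.

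The profiles nearest to that of Cdkn1a were those of Cdc20 (the activator of the anaphase-promoting complex), Stmn1 (a protein that destabilises microtubules) and Cks2 (a small subunit of cyclin-dependent kinases), at root mean square differences of 0.087, 0.091 and 0.093 log2 units beside an SD of 0.52 for Cdkn1a. Cdc20 stood at 7.15, 12.2 and 7.94 CPM in the vehicle libraries, against 11.2, 5.11 and 9.05 CPM in those of ABT263. The summed level of 22 E2F-regulated proliferation genes had the same order at its ends: 712 CPM in vehicle replicate 2, 610 in ABT263 replicate 1 and 336 in ABT263 replicate 2, with 476 to 554 in the others. Other genes of that list had another order. Mki67, a marker of cycling cells picked here after its values were seen, was at 49.8, 36.8 and 48.4 CPM in the vehicle libraries, against 47.1, 22.3 and 65.6 CPM in those of ABT263. Top2a, a DNA topoisomerase of dividing cells picked in the same way, was at 38.0, 34.9 and 34.8 CPM, against 40.6, 17.9 and 46.2 CPM. Both were highest in ABT263 replicate 3, and like Cdkn1a they were lowest in ABT263 replicate 2.

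Cdkn1b, which encodes p27, an inhibitor controlled mainly through protein turnover, was the steadiest of the 8 genes (chromosome 6, 134920401 to 134925513). Its levels were 26.6, 28.1 and 35.05 CPM in the vehicle libraries, against 28.0, 35.6 and 27.9 CPM in those of ABT263. The highest library was 1.34 times the lowest. The log2 fold change was 0.029 (SE 0.19), and its 95% interval of -0.43 to 0.48 is the narrowest among the CDK inhibitors. Its SD of 0.19 on the log2 scale lay at percentile 14.6 of all genes tested.

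Cdkn1c, the imprinted gene of p57 (chromosome 7, 143458339 to 143461050), was the most variable, at percentile 89.8. It stood at 56.1, 18.1 and 225 CPM in the vehicle libraries, against 49.9, 68.7 and 52.0 CPM in those of ABT263. The vehicle group held both the highest and the lowest library, and the 3 ABT263 libraries lay close together between them. The log2 fold change was -0.81 (SE 0.81, 95% interval -2.75 to 1.13, adjusted p = 0.844 by edgeR), and it was 0.62 without vehicle replicate 3 and -1.31 without vehicle replicate 2. In vehicle replicate 3 summed cartilage markers (6 of 6 in the table, 5 tested, all 5 negative) were 2583 CPM, against 1440 and 1513 in the other vehicle libraries and 680 to 1205 with ABT263. Col10a1, the collagen of hypertrophic cartilage, was at 169 CPM there and at 3.32 to 13.9 CPM elsewhere. Col2a1, Acan and Chad were also highest there. Comp, of the same list, was at 188 CPM there, its lowest vehicle level, and highest in ABT263 replicate 3 (367 CPM). B cell sums were highest in vehicle replicate 3 as well (77.2 CPM, against 4.57 to 34.8 elsewhere). In vehicle replicate 2, where Cdkn1c was lowest, 6 endothelial markers summed to 355 CPM, against 1600 to 4412 in the other libraries. The cartilage sum did not follow Cdkn1c there, at 1513 CPM, which only vehicle replicate 3 exceeded. The part of these marker levels in the Cdkn1c value was not tested. The antisense gene Gm44732 overlaps 30.65% of the Cdkn1c exon bases, so its counts are uncertain too.

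**Figure D2:**
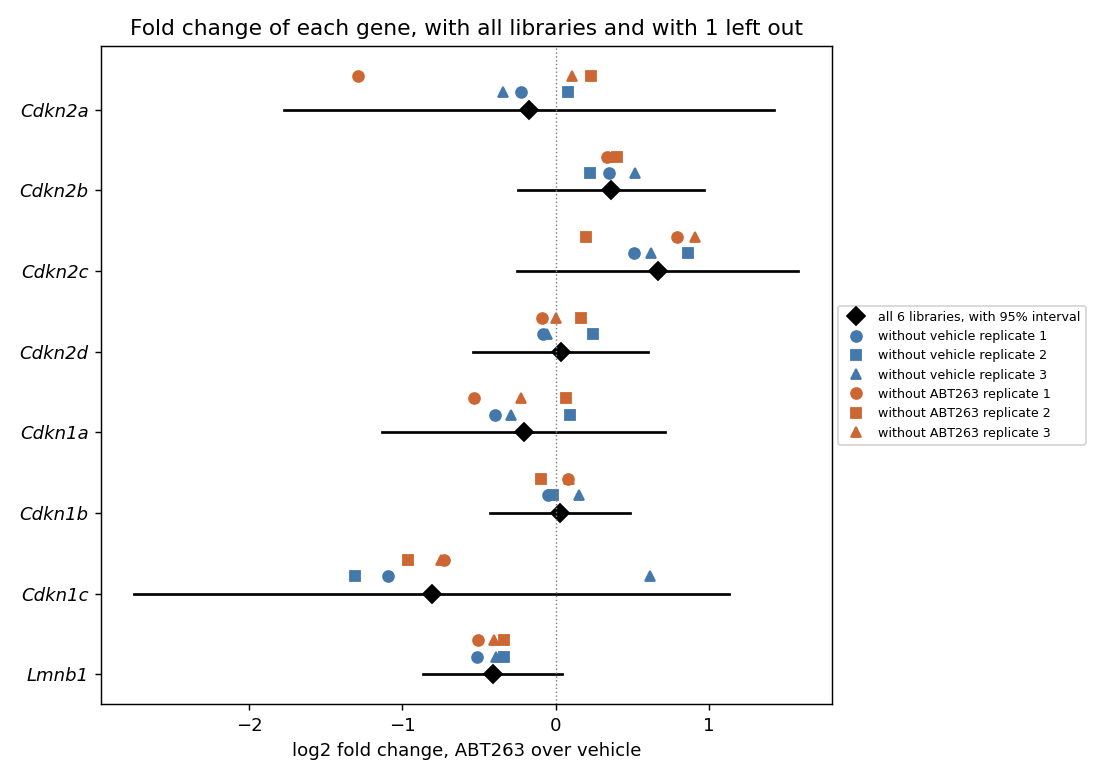
Log2 fold change (ABT263 over vehicle) of each gene from edgeR with its 95% interval (black), and the value with 1 library left out (blue for a vehicle, orange for an ABT263 library). Cdkn2a moves to -1.29 without ABT263 replicate 1 and Cdkn1c to 0.62 without vehicle replicate 3, while the intervals of all 8 genes include 0.

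Lmnb1 had the smallest p of the 8 genes and, after TMM scaling, was lower in every ABT263 library. Its levels were 17.4, 22.5 and 21.1 CPM in the vehicle libraries, against 17.1, 13.7 and 15.0 CPM in those of ABT263. The groups did not overlap, with 17.4 CPM in vehicle replicate 1 against 17.1 in ABT263 replicate 1 as the closest pair. This separation rests on TMM scaling, with factors of 0.930 and 1.056 in these libraries. Raw counts were 1086 of 67236568 in vehicle replicate 1 and 1656 of 91688075 in ABT263 replicate 1. Scaled by library totals alone, ABT263 replicate 1 lies above vehicle replicate 1, and the groups overlap. The means were 20.3 ± 2.65 and 15.3 ± 1.72 CPM (SD, n = 3), and the log2 fold change was -0.41 (SE 0.19, 95% interval -0.86 to 0.039, adjusted p = 0.601 by edgeR). By unadjusted p Lmnb1 ranked 1699 of 15222 genes. The other lamins, picked as its paralogs after the values were known, had groups that overlapped. Lmnb2, the second B-type lamin, was at 22.3, 21.2 and 22.9 CPM in the vehicle libraries, against 29.9, 19.9 and 20.8 CPM in those of ABT263 (log2 fold change 0.088, SE 0.21), and -0.12 without ABT263 replicate 1. Lmna, which encodes the A-type lamins, was at 353, 483 and 328 CPM in the vehicle libraries, against 558, 298 and 444 CPM in those of ABT263 (log2 fold change 0.16, SE 0.31), and -0.068 without ABT263 replicate 1. Whether Lmnb1 differed from them in its response was not tested.

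Nearest to the profile of Lmnb1 were Osbpl7 (a lipid-binding protein of the oxysterol-binding family), Top3a (a DNA topoisomerase) and Birc3 (an inhibitor-of-apoptosis protein), at 0.059, 0.068 and 0.072 log2 units beside an SD of 0.27 for Lmnb1. Birc3 stood at 34.7, 45.7 and 38.4 CPM in the vehicle libraries, against 30.3, 26.5 and 29.6 CPM in those of ABT263. Macrophage, T cell, B cell and cartilage sums were lower in the same libraries as Lmnb1, as given above.

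**Figure D3:**
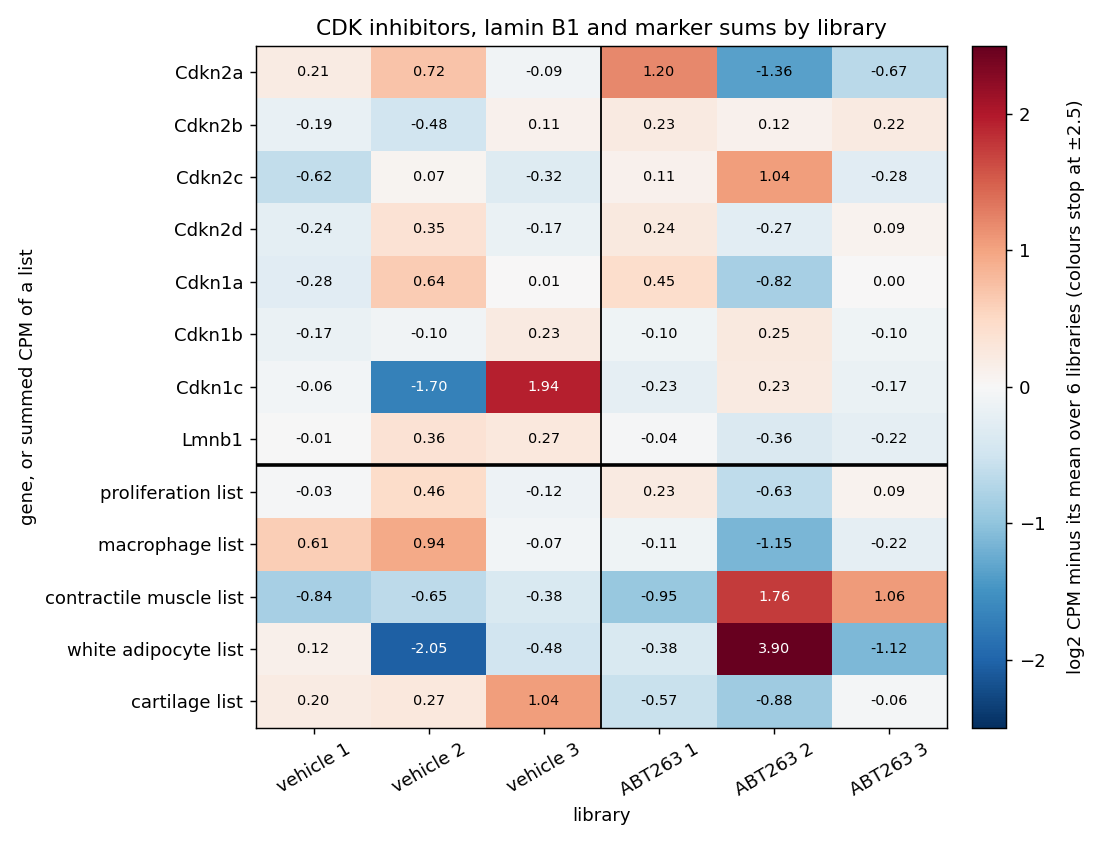
Log2 CPM minus its mean over the 6 libraries for the 8 genes (above the line) and for the summed CPM of 5 lists (below it), with libraries in columns. Cdkn1a, Cdkn2d, Lmnb1, the proliferation list and the macrophage list are all highest in vehicle replicate 2 and lowest in ABT263 replicate 2. Cdkn1c peaks in vehicle replicate 3 with the cartilage list. In vehicle replicate 2, however, Cdkn1c is lowest (-1.70) while that list is at 0.27. In ABT263 replicate 2 that list is lowest (-0.88) while Cdkn1c is at 0.23.

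Levels per kilobase of merged exon allow only a rough comparison of genes. Merged exons pool every annotated transcript of a gene, and the annotation behind the counts is not given. On this scale Cdkn1c and Cdkn1a were the most abundant of the 8 in either group. With vehicle they stood at 48.8 ± 53.9 and 37.1 ± 12.7 CPM per kilobase (SD, n = 3) and did not differ beyond their spread. Cdkn2d came next at 12.9 ± 3.06 CPM per kilobase, below every Cdkn1a value (26.9 to 51.3) and, in vehicle replicate 2, above Cdkn1c (16.4 against 8.86). Lmnb1 (6.86 ± 0.89), Cdkn1b (6.57 ± 1.00), Cdkn2a (5.99 ± 1.73), Cdkn2c (4.43 ± 1.07) and Cdkn2b (4.09 ± 0.83 CPM per kilobase) followed. Every vehicle value of Cdkn2d (10.8 to 16.4) lay above every 1 of Lmnb1 (5.87 to 7.59). From Lmnb1 down to Cdkn2b the ranges of neighbours overlapped. Even so, Cdkn2a was above Cdkn2c in each of the 3 vehicle libraries (5.56 against 3.46, 7.89 against 5.57 and 4.51 against 4.27 CPM per kilobase). In CPM, Cdkn2a was below Cdkn2c in each of them, so this order rests on the merged exon lengths (1172 and 2686 bases). Per kilobase, Cdkn2a was below Cdkn2c in ABT263 replicates 2 and 3 (1.87 against 10.95 and 3.03 against 4.40). It was above Cdkn2c in ABT263 replicate 1 (11.02 against 5.74 CPM per kilobase). With ABT263 the order at the top was Cdkn1a (32.1 ± 13.1), Cdkn1c (27.9 ± 5.06) and Cdkn2d (13.2 ± 2.33 CPM per kilobase). Lmnb1 was then the last of the 8 at 5.16 ± 0.58 CPM per kilobase, within the spread of Cdkn2b (5.24 ± 0.23) and Cdkn2a (5.31 ± 4.98). The length of Cdkn2a covers both of its first exons, so the level of a single transcript may be understated.

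The partners and targets of these inhibitors were read from lists of the pathway, and none of their genes passed the test. Among the G1 cyclins and their kinases, 5 of 9 were positive and 4 negative, with a median log2 fold change of 0.0061. Ccnd2, a D-type cyclin, was the gene of smallest p, at 130, 66.4 and 138 CPM in the vehicle libraries, against 161, 162 and 178 CPM in those of ABT263 (log2 fold change 0.58, SE 0.30, adjusted p = 0.638 by edgeR). Its groups did not overlap, and the value was 0.32 without vehicle replicate 2. Ccnd3, another D-type cyclin, and Cdk2, the kinase held by the Cip/Kip proteins, had log2 fold changes of 0.21 and -0.21, or 0.027 without ABT263 replicate 2 and -0.026 without vehicle replicate 2. The retinoblastoma family and E2F factors had 7 positive and 7 negative of 14 (median -0.019). Tfdp2, a partner of E2F, had 0.64 (SE 0.37), Rbl1, the pocket protein p107, -0.29 (SE 0.20), and E2f4, a repressive E2F, -0.21 (SE 0.18). Single libraries decided much of these sizes: without ABT263 replicate 2 Tfdp2 was at 0.28 and Rbl1 at -0.14, and without vehicle replicate 2 E2f4 was at -0.088.

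E2F-regulated proliferation genes leaned to the negative side, with 18 of 22 negative and a median log2 fold change of -0.16, beside 7593 of 15222 negative over all genes. Cdt1, which licenses replication origins, had -0.70 (SE 0.47). Its levels were 17.2, 28.1 and 11.3 CPM in the vehicle libraries, against 16.6, 5.88 and 12.4 CPM in those of ABT263, and the groups overlapped. Mcm3 and Mcm2, subunits of the replicative helicase, had -0.36 (SE 0.26) and -0.29 (SE 0.24). The list median was 0.26 without vehicle replicate 2 and ABT263 replicate 2, and 0.058 and 0.049 without either one, so its sign rested on these libraries. Cdt1, Mcm3 and Mcm2 were at 0.024, 0.045 and 0.019 without both. The summed list was highest in vehicle replicate 2 (712 CPM) and lowest in ABT263 replicate 2 (336 CPM). Leaving both out therefore pushes the values upward by construction.

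Regulators of the INK4 locus and of p27 showed small fold changes. Of 14 INK4 regulators 6 were positive and 8 negative (median -0.048), led by Id2, an inhibitor of DNA binding that opposes retinoblastoma proteins (log2 fold change -0.47, SE 0.22, adjusted p = 0.619 by edgeR). Ets2, which can activate Cdkn2a, had 0.30 (SE 0.18) with groups that did not overlap, and Ezh2, the Polycomb methyltransferase that silences the locus, -0.37 (SE 0.25). The p27 turnover list had 4 positive and 4 negative (median -0.0079). In it Foxo4, which activates Cdkn1b, had 0.33, Skp2, the ubiquitin ligase subunit that marks p27, -0.36, and its partner Skp1a 0.23. Skp2 was at -0.095 without vehicle replicate 1. Without ABT263 replicate 2, Foxo4 was at 0.13, Skp1a at 0.14 and Ezh2 at -0.20, and without vehicle replicate 2 Ets2 was at 0.19.

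The p53 pathway list had 6 positive and 10 negative of 16 (median -0.11). It holds Trp53, Mdm2 and Mdm4, and otherwise target genes of p53, as Cdkn1a is. Eda2r, a death-domain receptor induced by p53, was at 5.82, 3.12 and 7.15 CPM in the vehicle libraries, against 9.85, 7.34 and 8.79 CPM in those of ABT263, without overlap (log2 fold change 0.69, SE 0.36, adjusted p = 0.641 by edgeR). Bbc3, the killer protein PUMA that antiapoptotic BCL-2 proteins hold in check, had -0.47 (SE 0.30), and Sesn1, a stress protein, -0.27 (SE 0.20). Without vehicle replicate 2 Eda2r was at 0.41 and Bbc3 at -0.28, and without ABT263 replicate 1 Sesn1 was at -0.13. Of 14 other nuclear lamina and envelope genes 7 were positive and 7 negative (median 0.041). Their summed level was 1246 to 1302 CPM with vehicle and 1425 to 1544 with ABT263, without overlap, though only 1 gene separated the groups singly. Sun1, a linker of nucleus and cytoskeleton, had 0.38 (SE 0.22) with groups that did not overlap. Sun2, its paralog, had 0.36 (SE 0.26), and Syne2, a nesprin that binds both, 0.62 (SE 0.57). Without vehicle replicate 2 they were at 0.20, 0.22 and 0.21, and without ABT263 replicate 2 Sun2 was at 0.20 and Syne2 at 0.23. Exons of Ccnd2, Ccnd3, Cdk2, Ezh2, Sun1, Sun2 and Syne2 overlap those of another gene over 0.04% to 7.86% of their bases, which leaves their counts somewhat uncertain.

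Secreted factors of senescent cells spread most widely, with 9 positive and 11 negative of 20 tested (median -0.074). An unadjusted p of 0.05 by edgeR was reached by 6 of them, beside 8.38% of all genes. These went both ways (Igfbp5, Mmp3, Igfbp4 and Vegfa positive, Tnf and Il1b negative). Groups did not overlap for 0 of the 20, beside 12.0% of all genes. With 1 library left out the median ran from -0.47 (ABT263 replicate 1) to 0.31 (vehicle replicate 2), and it was 0.56 with both replicates numbered 2 left out. Igfbp5, a binding protein of insulin-like growth factors, was at 6.29, 9.98 and 18.0 CPM in the vehicle libraries, against 12.1, 1510 and 53.6 CPM in those of ABT263 (log2 fold change 5.52, SE 1.82, adjusted p = 0.592 by edgeR). It was 1.53 without ABT263 replicate 2, where Adipoq was high. Mmp3, a matrix protease, had 1.996 (SE 0.71), or 1.03 without ABT263 replicate 3. Tnf, tumour necrosis factor, had -2.30 (SE 0.88), or -0.79 without vehicle replicate 2.

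**Figure D4:**
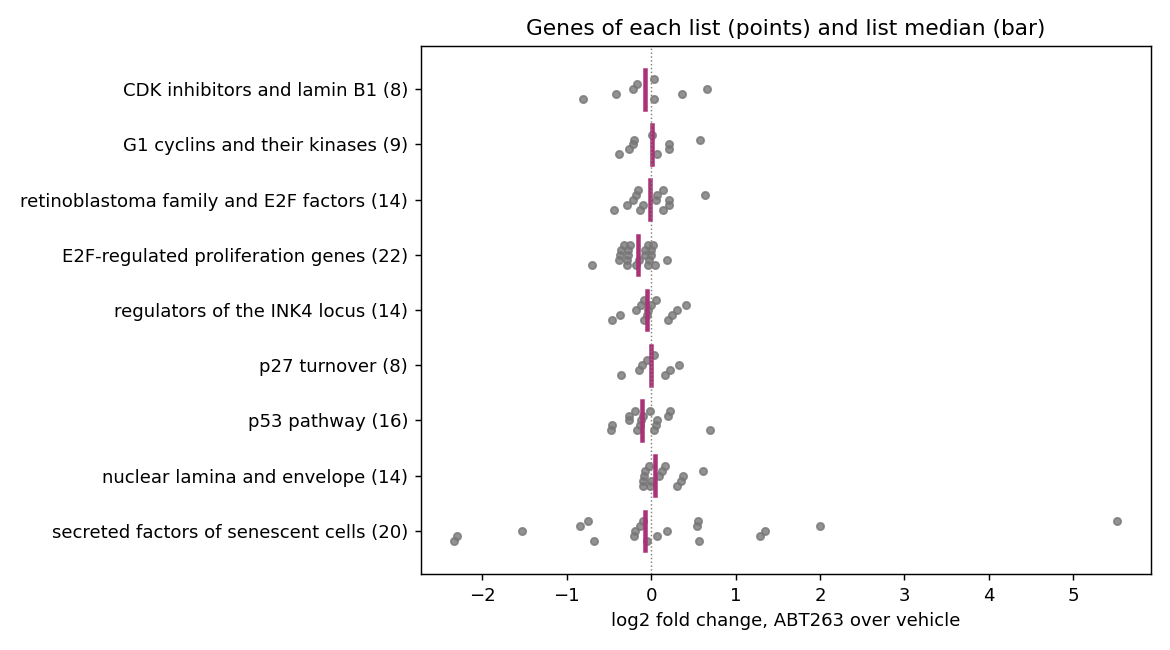
Log2 fold change (ABT263 over vehicle) of every tested gene of the 8 arrest genes and of 8 pathway lists, 1 point per gene with the number tested in brackets; the bar is the list median. List medians lie between -0.16 and 0.041, and the secreted factors reach from -2.34 to 5.52.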

How the data were processed

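Bulk RNA from 6 aortic arch plaque samples was sequenced (3 vehicle, 3 ABT263). The authors deposited raw counts in 1 table, as whole reads for each gene symbol in each library. The submitters' processing notes name, without roles, featureCounts 1.4.6 (Subread), Bowtie2 2.2.6, TopHat2 2.0.14 and mm10. Neither annotation, strand setting nor the rule for multi-mapping reads is given in the sources used here. Libraries were made with the unstranded TruSeq v2 kit per the labels' protocols. Groups came from sample titles, and replicates were numbered in accession order, which pairs nothing.

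Counts were analysed in R 4.3.3. The filterByExpr defaults (minimum count 10, minimum total 15) kept 15222 genes. TMM scaling and edgeR 4.0.16's quasi-likelihood F-test with the group alone (4 residual degrees of freedom) gave log2 fold changes, with Benjamini-Hochberg adjustment over all genes and a threshold of 0.05. Standard errors are the absolute log2 fold change over the root of F, and the 95% interval uses a t quantile. Centred profiles used log2 CPM with a prior count of 2. DESeq2 1.42.0, limma-voom (limma 3.58.1), other scalings and filters, and fits without single libraries were alternatives, 15 in all. The procedure was tested on simulated counts. Genes and lists were chosen with earlier results of these data known. Of each list the 3 genes of smallest p are named, with the 3 nearest profiles for Cdkn2a, Cdkn1a and Lmnb1, which needed a mean log2 CPM of at least 0. Marker genes named beside a result were picked after their values were seen. Positions and exon overlaps are from GENCODE M21.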

Additional observations from a re-analysis of the deposited data

How the results depend on the processing

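None of the 8 genes was called under any of the 15 alternatives. The number of genes called was 0 in all of them but DESeq2, which called 153. Lmnb1 stayed negative (-0.51 to -0.26) and Cdkn2b (0.22 to 0.52) and Cdkn2c (0.20 to 0.91) positive in all 15. Other tools, scalings and filters turned no sign among the 8 genes, the 3 genes named from each pathway list, Lmna and Lmnb2. Genes named for a near profile or as markers were not refitted. Signs turned where libraries were left out, singly or as the pair of vehicle replicate 2 and ABT263 replicate 2. Over these fits the log2 fold change ran from -1.29 to 0.48 for Cdkn2a, from -0.087 to 0.38 for Cdkn2d, from -0.53 to 0.37 for Cdkn1a, from -0.14 to 0.15 for Cdkn1b, from -1.46 to 0.62 for Cdkn1c, from -0.068 to 0.56 for Lmna and from -0.12 to 0.20 for Lmnb2. It ran from -0.33 to 0.038 for Cdk2, from -1.05 to 0.024 for Cdt1, from -0.52 to 0.045 for Mcm3, from -0.45 to 0.019 for Mcm2, from -0.026 to 0.46 for Foxo4 and from -0.18 to 0.91 for Syne2. The cause was not tested. With 1 library left out, Cdkn2a ended at 0.23, Cdkn1a at 0.095 and Cdkn2d at 0.24 on the positive side. Library totals in place of TMM moved the median of all genes to 0.092. They brought Lmnb1 to -0.33, and its groups then overlapped. No paired analysis was possible because the labels give no shared replicate numbers. With 3 libraries a group, the 95% interval of Cdkn2a leaves room for more than a 2-fold difference in either direction, and that of Lmnb1 ends at 0.039, just past 0.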
